A study of Rattus norvegicus and Mus musculus with 12 samples.

Results

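The matrix metalloproteinase genes described here are Mmp2, Mmp3, Mmp8, Mmp9, Mmp10, Mmp11, Mmp12, Mmp13, Mmp14 and Mmp19, chosen by their symbols in the deposited rat and mouse tables. They are 10 of the 33806 different gene symbols that the tables hold together, and each table held all 10 of them among its 19687 rat and 28603 mouse genes. The libraries were made from passage 1 articular chondrocytes of newborn SD rats and C57BL/6 mice, released from cartilage with collagenase and grown in medium with serum, with 3 libraries in each of 4 groups. The chondrocytes of the RM group (rat model) and the MM group (mouse model) received the inflammatory cytokine IL-1β at 20 ng/ml for 24 h, and those of the RC group (rat control) and the MC group (mouse control) were not. None of the groups carried an engineered allele according to the labels, and the strain label of the mouse libraries runs from C57BL/6 to C57BL/9 although the methods name C57BL/6 alone. The model is a culture of dissociated newborn cells given 1 cytokine at 1 dose and 1 time, and no joint or adult cartilage was measured. The study set out to compare how rat and mouse chondrocytes respond to this stimulus, which is used as a cell model of osteoarthritis.

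Matrix metalloproteinases are zinc-dependent endopeptidases that cut the proteins of the extracellular matrix. Most are secreted as inactive precursors, become active when other proteases remove a propeptide, and are held in check by tissue inhibitors of metalloproteinases (TIMPs). In cartilage they are best known for the breakdown of type II collagen and aggrecan in arthritis, in which collagenases make the first cut in the collagen triple helix, gelatinases digest the unwound chains, and stromelysins cut proteoglycans and also activate other precursors.

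Depth and quality bore on these values as follows. Between 20169272 and 25903459 reads were counted on genes in a rat library and between 16841580 and 20048322 in a mouse library, so that 3 counts, the limit a count of 0 allows, corresponded to 0.116 to 0.149 CPM (a count put on the scale of equal library totals) in rat and 0.15 to 0.178 CPM in mouse. Counts were compared with edgeR's quasi-likelihood test, scaled by TMM (an estimate that is little affected by a few very abundant genes), and a gene was called at an adjusted p under 0.05. The spread between libraries of a group, given by edgeR as a biological coefficient of variation, was 0.106 in rat and 0.0318 in mouse. The scaling mattered in mouse, where the log2 fold change of the median gene was -0.02 under TMM and -0.3 under library totals alone, against 0.01 and 0.02 in rat. FPKM values, in which a count is divided by the gene's length and the library's total, carry no TMM scaling. Of the chondrocyte markers, 10 of 10 had a mean FPKM of at least 1 in the RC, RM and MC groups and 8 of 10 in the MM group, and their summed FPKM fell from 4150 to 4820 in RC libraries to 1460 to 1520 in RM libraries, and from 2110 to 2160 in MC libraries to 173 to 187 in MM libraries. In bulk RNA, fewer cells of a type and less RNA per cell cannot be told apart.

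The genes lie partly in a cluster, and the sequences just before the starts of 6 members are shown first. In the mouse (GRCm38), Mmp13, Mmp12, Mmp3, Mmp10 and Mmp8 lie in this order on chromosome 9 within 309372 bases (chr9:7272514-7581885), together with Mmp1b, Mmp1a and Mmp27. The same 5 members follow each other in the same order on rat chromosome 8. RefSeq promoter windows of the rat assembly GRCr8, from 250 bases before a gene's start to 50 after it, matched 6 of the 10 members by symbol, and none was found under the symbols Mmp2, Mmp9, Mmp14 and Mmp19. The rat reads were counted on another assembly (Rnor_6.0), so these coordinates name the sequences and place no reads. The 150 bases before the start are given 5′ to 3′ on the plus strand, with a match to the AP-1 motif TGANTCA (N is any base) in capitals, for 4 of the members that were upregulated in the RM group, for Mmp8, which had no counts in rat, and for Mmp11, which was not called in rat.
Mmp13, chr8:12782679-12782828: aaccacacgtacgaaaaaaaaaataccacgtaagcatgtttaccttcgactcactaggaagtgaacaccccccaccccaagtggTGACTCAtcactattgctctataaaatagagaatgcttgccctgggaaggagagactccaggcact
Mmp12, chr8:12866502-12866651: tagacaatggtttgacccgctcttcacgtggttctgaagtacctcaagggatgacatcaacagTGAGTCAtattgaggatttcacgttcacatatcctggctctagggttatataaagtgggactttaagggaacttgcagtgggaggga
Mmp3, chr8:12925131-12925280: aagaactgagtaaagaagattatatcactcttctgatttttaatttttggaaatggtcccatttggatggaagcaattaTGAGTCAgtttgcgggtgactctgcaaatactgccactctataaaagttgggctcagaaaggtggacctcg
Mmp10, chr8:12974557-12974706: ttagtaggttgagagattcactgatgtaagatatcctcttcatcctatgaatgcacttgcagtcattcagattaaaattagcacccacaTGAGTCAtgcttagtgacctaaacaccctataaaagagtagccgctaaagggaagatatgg
Mmp8, chr8:13008740-13008889: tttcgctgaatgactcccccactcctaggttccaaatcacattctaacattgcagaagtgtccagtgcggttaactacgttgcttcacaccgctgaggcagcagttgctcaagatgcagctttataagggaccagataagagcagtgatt
Mmp11, chr20:12730134-12730283: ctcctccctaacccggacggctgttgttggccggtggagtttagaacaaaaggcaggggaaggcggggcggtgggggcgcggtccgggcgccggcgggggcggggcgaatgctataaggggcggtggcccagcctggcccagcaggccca

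AP-1 is a dimer of Fos and Jun proteins, and its motif has long been known in the promoters of inducible metalloproteinase genes. The motif, which reads the same on both strands, occurred once in the whole window of Mmp13 (bases -66 to -60 from the start), Mmp12 (-87 to -81), Mmp3 (-71 to -65) and Mmp10 (-61 to -55), and in neither Mmp8 nor Mmp11. It was present in 7.33% of the 33469 rat promoter windows of this length. The TATA box TATAAA, on either strand, was found in the windows of Mmp13, Mmp12, Mmp3, Mmp10 and Mmp8 and not in that of Mmp11, against 14.2% of all windows. In Mmp10 it occurred at -33 and again as an overlapping pair of matches on opposite strands that begin at -198 and -196. An NF-κB motif of GGG and CC with 5 bases of any kind between them, on either strand, was found only in the Mmp12 window (-142 to -133), and 47.3% of all windows held it. The window of Mmp11 was also the richest in G and C, with 68% against 38.3% to 49.7% in the other 5. These are matches of letters, and no binding was measured. The upregulated Mmp2 and Mmp9 were left out of the windows and Mmp8 had no rat counts, and a link between motif and response was not tested.

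**Figure D1:**
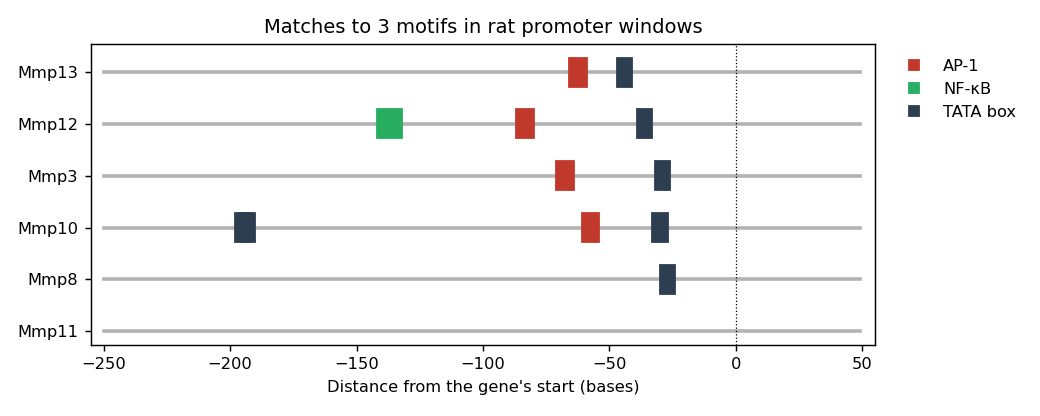
Matches to the AP-1, NF-κB and TATA box motifs in the rat promoter windows of 6 members, by distance in bases from the gene's start (dotted line), with 1 grey line per window. AP-1 matches lie between -87 and -55 in Mmp13, Mmp12, Mmp3 and Mmp10, and there is none in Mmp8 or Mmp11.

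In rat chondrocytes, Mmp2, Mmp3, Mmp9, Mmp10, Mmp12 and Mmp13 were upregulated in the RM group and Mmp19 was downregulated, while Mmp11 and Mmp14 were not called and Mmp8 had no counts. The rises reached log2 fold changes of 5.92 for Mmp3, 5.85 for Mmp10 and 5.19 for Mmp9, and the other 3 were 3.03 for Mmp13, 2.96 for Mmp12 and 0.55 for Mmp2. In all, 6 of the 9 members tested were called higher, against 18.3% of the 13303 rat genes tested, and 1 was called lower, against 16.8% (35.1% of all genes in either direction). The median log2 fold change of the 9 was 2.96, beside 0.01 for all genes tested. The members were chosen with earlier results of these data known, so neither the count nor the median is evidence about them as a group. The study's criteria were read as p under 0.05 before adjustment and a log2 change of 0.85 or more up or down. An FPKM also had to reach 1 in some library. The paper writes a fold change above 0.85 without naming log2, and edgeR's p and log2 fold change were used here. By these criteria, 5 members were upregulated, as were 4.64% of all genes. None of the 9 tested was downregulated, as were 3.90% of all genes. Mmp2 and Mmp19, the 2 members that passed the adjusted p alone, changed by less than that size. The FPKM of every RM library lay above those of all RC libraries for 6 members and below them for the other 3, against 25.5% and 22.3% of all genes.

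In mouse chondrocytes, the same 6 members were upregulated in the MM group and Mmp11, Mmp14 and Mmp19 were downregulated. Mmp3 had the largest rise, from less than 1 FPKM on average in the MC group to 7966.7 ± 51.5 (SD, n = 3) in the MM group. The 6 of 9 called higher stood against 37.4% of the 14774 mouse genes tested and the 3 called lower against 37.7%, with 75.0% of all genes called in either direction, so that the 3 lower calls are near the share of all genes. The median log2 fold change of the 9 was 3.83, beside -0.02 for all genes tested. Mmp9, Mmp10 and Mmp12 had only 10, 6 and 3 counts over the whole MC group, so they entered the test through their MM counts, and neither the count nor the median is evidence about the members as a group. By the study's criteria Mmp3, Mmp10, Mmp12 and Mmp13 were upregulated, as were 12.6% of all genes, and none was downregulated, as were 13.0%. Mmp9 missed the criteria as applied here, with an FPKM of 0.578 to 0.722 in the MM libraries. The paper, however, names MMP9 among the metalloproteinases that rose in both species. The FPKM groups did not overlap for any of the 9, with 6 above and 3 below, against 25.4% and 54.9% of all genes on this scale without TMM.

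**Figure D2:**
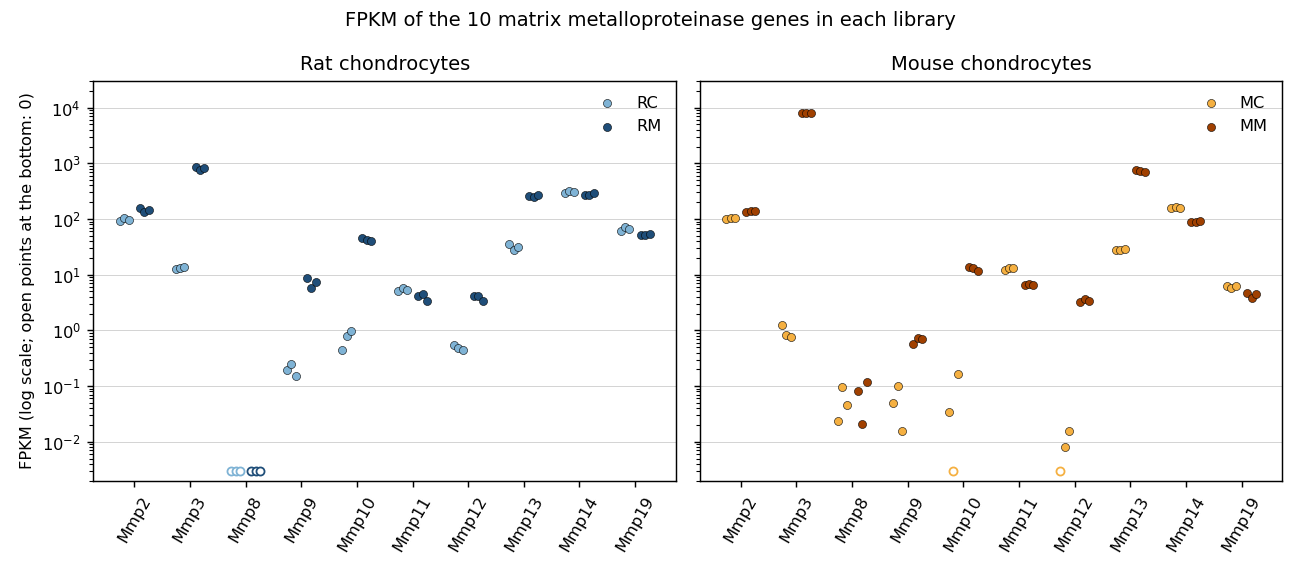
FPKM of the 10 members in each of the 12 libraries on a log axis, rat on the left and mouse on the right, with 1 point per library and open points at the bottom for a value of 0. Mmp3 rises from 12.7 to 14.0 in RC to 769.4 to 875.5 in RM, and from 0.773 to 1.26 in MC to 7912.1 to 8014.5 in MM.

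Mmp3 (ENSRNOG00000032626 in rat, ENSMUSG00000043613 in mouse), stromelysin 1, cuts aggrecan and other matrix proteins and activates precursors of other members. Its FPKM was 12.7, 13.4 and 14.0 in the RC libraries and 875.5, 769.4 and 807.0 in the RM libraries. The rat groups were thus far apart, by a log2 fold change of 5.92 (SE 0.0863, adjusted p = 2.18e-11). In mouse (chr9:7445822-7455975), it was 1.26, 0.824 and 0.773 in the MC libraries, from 39, 25 and 25 counts, and 7973.7, 8014.5 and 7912.1 in the MM libraries. The log2 fold change was 13.3 (SE 0.0475, adjusted p = 4.53e-91), and the ratio of the scaled counts was 10157.5, with a 95% interval of 8254.1 to 12648.3 that covers counting error only. This SE understates the error from the 89 MC counts, and DESeq2 gave an SE of 0.154. In the MM group, 1.43% ± 0.00928 of all counted reads fell on this 1 gene, against 0.000172% ± 4.87e-05 in the MC group, 0.14% ± 0.00919 in the RM group and 0.00228% ± 0.000115 in the RC group.

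Mmp10, stromelysin 2, is the closest relative of Mmp3. It had FPKM of 0.448, 0.809 and 0.973 in the RC libraries and 46.2, 41.3 and 40.8 in the RM libraries, a log2 fold change of 5.85 (SE 0.173, adjusted p = 5.11e-09). In mouse (chr9:7502352-7510240), the MC libraries held 1, 0 and 5 counts of it (FPKM of 0.0339, 0 and 0.162), and the MM libraries had FPKM of 13.6, 13.2 and 11.6. Its log2 fold change in mouse was 7.77 (adjusted p = 5.58e-39), with a ratio of scaled counts of 232.6 (counting interval 106.6 to 635.1). Leaving out 1 MC library at a time moved this log2 fold change between 7.23 and 9.49, the latter without the third MC library, which held 5 of the 6 counts. Of the 50-base words of the mouse Mmp10 transcript used, 8.37% also occur in Mmp3, and 8.39% of those of Mmp3 occur in Mmp10 or Gm15244, so reads from the shared stretches cannot be assigned to one gene. The Mmp10 counts equalled 5.47%, 5.22% and 6.74% of the Mmp3 counts in the RC, RM and MC groups and 0.154% in the MM group, and the part of shared reads in them was not tested.

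Mmp11, stromelysin 3, is activated inside the cell and cuts matrix proteins poorly. Its FPKM was 5.06, 5.75 and 5.36 in the RC libraries and 4.17, 4.58 and 3.34 in the RM libraries. All RM values lay below the RC values, but the log2 fold change of -0.43 (SE 0.154) just missed the threshold (adjusted p = 0.0502), and the adjusted p was 0.0251 without RC replicate 1 and 0.0446 without RM replicate 2. In mouse (chr10:75923222-75936496), the MC libraries had FPKM of 12, 13.0 and 13.1 and the MM libraries 6.41, 6.68 and 6.40, a log2 fold change of -0.69 (SE 0.0719, adjusted p = 4e-13).

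Mmp13 (ENSRNOG00000008478 in rat, ENSMUSG00000050578 in mouse), collagenase 3, is the main enzyme that cuts type II collagen in cartilage. It was present without IL-1β, with FPKM of 36, 27.6 and 31.1 in the RC libraries. Its FPKM was 257.5, 252.2 and 272.0 in the RM libraries. The log2 fold change was 3.03 (SE 0.0985, adjusted p = 1.01e-08). In mouse (chr9:7272514-7283331), its MC values were 28.2, 28.3 and 28.4 and its MM values 746.4, 735.8 and 691.8, a log2 fold change of 4.96 (SE 0.0338, adjusted p = 4.13e-75). Mmp8, collagenase 2, is a product of neutrophils that chondrocytes can also make. It had no counts in any of the 6 rat libraries, and 1, 4 and 2 counts in the MC libraries and 4, 1 and 5 in the MM libraries (chr9:7558456-7568485). It was too low to be tested in either species, and no change was detectable at this depth, with a ratio of scaled counts in mouse of 1.58 and a counting interval of 0.542 to 4.88.

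Mmp2 and Mmp9 are the gelatinases, which digest denatured collagen. Mmp2, usually made without a stimulus, had FPKM of 91.0, 104.5 and 94.8 in the RC libraries and 155.3, 132.5 and 143.2 in the RM libraries. In mouse (chr8:92827291-92853420), its FPKM was 101.9, 104.2 and 104.9 in the MC libraries and 134.9, 140.8 and 137.1 in the MM libraries. The groups did not overlap in either species and the changes were small, with log2 fold changes of 0.55 (SE 0.0795, adjusted p = 0.000386) in rat and 0.69 (SE 0.0292, adjusted p = 7.32e-31) in mouse. These values carry the TMM scaling, and library totals alone gave 0.57 in rat and 0.41 in mouse. Mmp9, which cytokines can induce, started from FPKM of 0.191, 0.246 and 0.150 in the RC libraries, from 15, 18 and 10 counts, and reached 8.86, 5.89 and 7.25 in the RM libraries. Its log2 fold change in rat was 5.19 (SE 0.222, adjusted p = 8.42e-08). In mouse (chr2:164940780-164955850), the MC libraries held 3, 6 and 1 counts of Mmp9 (FPKM of 0.0495, 0.101 and 0.0157), and the FPKM in the MM libraries was 0.578, 0.722 and 0.695. The rise in mouse was a log2 fold change of 3.83 (SE 0.403, adjusted p = 4.84e-13), to a level that stayed below 1 FPKM in the 3 MM libraries. It was 4.55 without MC replicate 2 and 3.39 without MC replicate 3.

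Mmp12, macrophage elastase, cuts elastin and several matrix proteins. It had FPKM of 0.539, 0.481 and 0.450 in the RC libraries and 4.07, 4.18 and 3.38 in the RM libraries, a log2 fold change of 2.96 (SE 0.197, adjusted p = 1.89e-06). In mouse (chr9:7344381-7369499), the MC libraries held 0, 1 and 2 counts and the MM libraries had FPKM of 3.23, 3.67 and 3.32. The ratio of scaled counts was 517.8, with a counting interval of 176.8 to 2514, and the adjusted p was 1.65e-41. The fitted log2 fold change of 8.84 was 9.65 without MC replicate 3, which held 2 of the 3 counts. The exons of mouse Mmp12 overlap those of Mmp1b on the opposite strand by 157 bases, and the sources used here do not state whether reads were counted by strand.

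Mmp14, a membrane-type enzyme that cuts collagen at the cell surface and activates the precursors of Mmp2 and Mmp13, was the most abundant member in both control groups. Its FPKM was 295.2, 322.3 and 301.7 in the RC libraries and 266.8, 274.2 and 288.0 in the RM libraries, and in mouse (chr14:54431612-54445364) it was 160.7, 165.8 and 158.8 in the MC libraries and 88.5, 88.9 and 91.2 in the MM libraries. The groups did not overlap in either species. The log2 fold change was -0.16 in rat (SE 0.0632, adjusted p = 0.0664), which was not called, and -0.57 in mouse (SE 0.0271, adjusted p = 1.37e-28). Without RC replicate 1 the rat value was -0.21 (adjusted p = 0.0175).

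Mmp19, a secreted member found in many resting tissues, had FPKM of 61.6, 71.1 and 65.6 in the RC libraries and 50.9, 52.0 and 54.0 in the RM libraries, a log2 fold change of -0.35 (SE 0.0751, adjusted p = 0.00456). In mouse (chr10:128790910-128800824), its FPKM was 6.17, 5.80 and 6.15 in the MC libraries and 4.69, 3.78 and 4.50 in the MM libraries. The fitted change in mouse was -0.2 (SE 0.0872, adjusted p = 0.0305), and this call was lost without MC replicate 1 (adjusted p = 0.0801), MC replicate 3 (0.0657) or MM replicate 2 (0.298), and also without the filter on low counts (0.06) and with DESeq2 (0.0946). The fall was larger with library totals alone (-0.48, adjusted p = 1e-06) and with limma on log2(FPKM + 1) (-0.41, adjusted p = 0.000459), so its size depended on the scaling. Exons of other annotated genes overlap 1001 bases of mouse Mmp19.

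**Figure D3:**
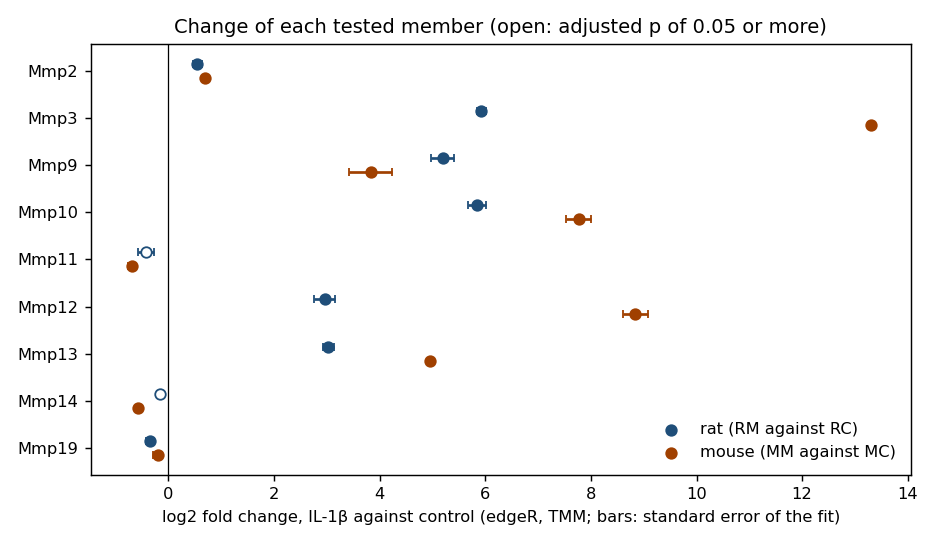
Log2 fold change of each of the 9 members tested, model against control group, in rat (blue) and mouse (brown), with bars for the SE and open points for an adjusted p of 0.05 or more. The bars understate the uncertainty of members with few counts in a group. Points lie on the same side of 0 in both species for each member, and Mmp3 is farthest from 0, at 5.92 in rat and 13.3 in mouse.

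The test of the difference between the species asked whether a member's change in mouse differed from its change in rat. All 9 members tested had the same sign in both species, against 55.1% of the 10912 genes tested in both. Of the 9, 6 were called higher in both species, against 9.28% of all genes, and Mmp19 was called lower in both, against 10.1%. Mmp9, Mmp10 and Mmp12 entered the mouse test through their MM counts. Neither the shared signs nor these counts are therefore evidence about the members as a group. Mmp3, Mmp12, Mmp13 and Mmp10 had larger values in mouse (4 of 9, against 31.4% of all genes) and Mmp14 a lower one (1 of 9, against 32.3%), with 63.8% of all genes called in either direction. The change of Mmp3 in mouse exceeded that in rat by 7.38 on the log2 scale (SE 0.133, adjusted p = 1.94e-16). For Mmp13 the excess was 1.93 (SE 0.103, adjusted p = 5.18e-11). Library totals alone gave 7.09 for Mmp3 and 1.63 for Mmp13, and limma on log2(FPKM + 1) gave 6.17 and 1.62.

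The other excesses rested on few MC counts. The excess was 5.9 for Mmp12 (SE 0.47, adjusted p = 8.93e-09), with 3 counts in the MC group, and it was 2.27 on the log2(FPKM + 0.1) scale and 0.42 on the log2(FPKM + 1) scale, which understate the change of low genes. It was 1.93 for Mmp10 (SE 0.613, adjusted p = 0.0112), with 6 MC counts. The Mmp10 call was lost without MC replicate 1 (1.63, adjusted p = 0.0532) or MC replicate 2 (1.39, adjusted p = 0.0572) and on the log2(FPKM + 0.1) scale (0.69, adjusted p = 0.143), and on the log2(FPKM + 1) scale its sign turned, to -0.96. Without MC replicate 3 it was 3.68, and the Mmp12 excess was 6.73. Mmp14 fell further in mouse, with a difference of -0.41 (SE 0.0681, adjusted p = 5.51e-05), which was -0.7 with library totals and on both FPKM scales. No difference was called for Mmp9 (-1.34, SE 0.705, adjusted p = 0.107), Mmp11 (-0.25, SE 0.15, adjusted p = 0.152), Mmp2 (0.13, SE 0.0852, adjusted p = 0.186) or Mmp19 (0.15, SE 0.112, adjusted p = 0.256). The Mmp11 difference was called with library totals (-0.55, adjusted p = 0.00377), with limma on log2(FPKM + 1) (-0.52, adjusted p = 0.00135) and log2(FPKM + 0.1) (-0.53, adjusted p = 0.00361), and without RM replicate 3 (-0.38, adjusted p = 0.0253). That of Mmp9 was -0.62 without MC replicate 2 and -1.79 without MC replicate 3, when it was called (adjusted p = 0.039), as it was with DESeq2 (-1.3, adjusted p = 0.0359) and with limma on both FPKM scales (-2.13 and -2.31). For Mmp2 and Mmp19 the sign of the difference turned with library totals in place of TMM, to -0.16 and -0.15.

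Levels per gene length were then ordered within each group by mean FPKM. In the RC group the order was Mmp14, Mmp2, Mmp19, Mmp13, Mmp3, Mmp11, Mmp10, Mmp12, Mmp9 and Mmp8, and the values of the neighbours Mmp10 and Mmp12 overlapped. In the RM group it was Mmp3, Mmp14, Mmp13, Mmp2, Mmp19, Mmp10, Mmp9, Mmp11, Mmp12 and Mmp8, with overlap between Mmp14 and Mmp13 and between Mmp11 and Mmp12. In the MC group it was Mmp14, Mmp2, Mmp13, Mmp11, Mmp19, Mmp3, Mmp10, Mmp8, Mmp9 and Mmp12, and Mmp10, Mmp8 and Mmp9 overlapped. In the MM group it was Mmp3, Mmp13, Mmp2, Mmp14, Mmp10, Mmp11, Mmp19, Mmp12, Mmp9 and Mmp8, with no overlap between neighbours. Mmp14 and Mmp2 thus led both control groups and Mmp3 both model groups.

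The summed FPKM of the 10 members went from 521.0 ± 22.5 in RC to 1608.3 ± 67.2 in RM libraries and from 313.6 ± 4.02 in MC to 8946.3 ± 77.8 in MM libraries (SD, n = 3). Mmp3 took 2.56% ± 0.144 of this sum in RC and 50.8% ± 1.44 in RM libraries, and 0.305% ± 0.0893 in MC and 89.1% ± 0.231 in MM libraries. The share of Mmp14 in rat went from 58.8% ± 0.185 to 17.2% ± 1.06, and its share in mouse from 51.6% ± 0.655 to 1.0% ± 0.0248. Mmp13 took 6.08% ± 1.06 and 16.2% ± 0.709 of the sum in the RC and RM groups, and 9.02% ± 0.102 and 8.1% ± 0.262 in the MC and MM groups, so its share was higher in RM than in RC and lower in MM than in MC libraries, while its FPKM rose in both species. Without Mmp3, the sum was 507.6 ± 22.3 in RC, 791.0 ± 22.7 in RM, 312.7 ± 4.2 in MC and 979.6 ± 28.5 in MM libraries. The tables of the species were normalized separately and against different gene models, so levels are not compared between rat and mouse.

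**Figure D4:**
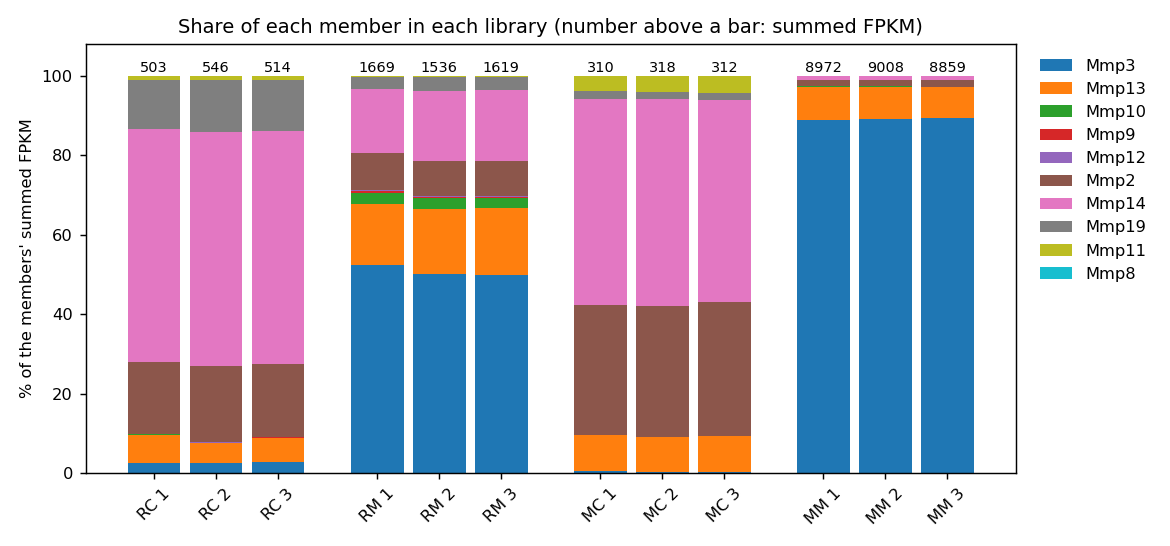
Share of each member in the summed FPKM of the 10 members in each library, in percent, with the sum printed above each bar. Mmp14 and Mmp2 fill most of the RC and MC bars, and Mmp3 takes about 50% of the RM bars and 89% of the MM bars.

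The inhibitors moved in both directions. Of the 6 inhibitor genes tested, 1 was called higher and 4 lower in rat (median log2 fold change -0.64), against 18.3% and 16.8% of all genes, and 2 higher and 4 lower in mouse (median -1.36), against 37.4% and 37.7%. Timp1, the secreted inhibitor that cytokines induce, had an FPKM of 306.6 ± 34.4 in RC, 453.3 ± 31.9 in RM, 248.1 ± 6.06 in MC and 1077.0 ± 38.8 in MM libraries, and its log2 fold changes of 0.55 (rat) and 2.4 (mouse) differed by 1.85 (adjusted p = 5.06e-11). Timp3, which binds to the matrix, fell by 1.25 on the log2 scale in rat and fell by 2.4 in mouse (difference -1.14, adjusted p = 2.1e-09), and Reck, a membrane-anchored inhibitor, fell by 0.76 and fell by 3.02 (difference -2.26, adjusted p = 4.2e-13). A2m, a plasma inhibitor of many proteases, had log2 fold changes of 0.04 in rat (adjusted p = 0.939) and 1.65 in mouse (adjusted p = 1.53e-26). The summed FPKM of the members relative to that of Timp1 to Timp4 was 0.423 ± 0.0149 in RC, 1.51 ± 0.0345 in RM, 0.212 ± 0.00218 in MC and 5.26 ± 0.105 in MM libraries, which is a ratio of RNA levels and no measure of enzyme activity.

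Of 11 genes for proteases, convertases and their receptors that help to activate the precursors, 6 were called higher and 3 lower in rat (median 0.22, with 18.3% and 16.8% of all genes), and 7 higher and 3 lower in mouse (median 0.66, with 37.4% and 37.7% of all genes). Pcsk5, a proprotein convertase, had an FPKM of 3.92 ± 0.179 and 5.83 ± 0.182 in the RC and RM groups and of 0.608 ± 0.0369 and 7.04 ± 0.0635 in the MC and MM groups, with log2 fold changes of 0.56 and 3.81 (difference 3.25, adjusted p = 8.86e-14). Pcsk6, its relative, fell by 0.78 in rat and fell by 3.53 in mouse on the log2 scale (difference -2.75, adjusted p = 3.26e-13). Plaur, the receptor of the plasminogen activator urokinase, rose by 0.53 and 2.42 (difference 1.89, adjusted p = 5.55e-09). Ctsk, a collagen-cutting cathepsin, was called in opposite directions, by -0.96 in rat and 0.45 in mouse on the log2 scale (difference 1.41, adjusted p = 2.81e-11).

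Of 19 transcription factors known to act on metalloproteinase promoters, 11 were called higher and 3 lower in rat (median 0.54), against 18.3% and 16.8% of all genes, and 17 higher and 2 lower in mouse (median 1.81), against 37.4% and 37.7%. The value in mouse was above that in rat for 15 of them and below it for 1, against 31.4% and 32.3% of all genes. Fosl1, an AP-1 subunit, had an FPKM of 16.7 ± 1.25 in RC, 37.4 ± 2.69 in RM, 6.65 ± 0.726 in MC and 117.9 ± 4.8 in MM libraries and rose by 1.15 and 4.42 on the log2 scale (difference 3.28, adjusted p = 2.59e-13). Jun, another AP-1 subunit, rose by 0.48 and 2.58 (difference 2.1, adjusted p = 2.44e-12), and Ets1, which can act with AP-1, by 0.73 and 2.38 (difference 1.65, adjusted p = 4.55e-11). Atf3, a stress-induced factor of the same family, was downregulated in rat (-0.85, adjusted p = 0.00145) and upregulated in mouse (4.26, adjusted p = 7.9e-53), a difference of 5.1 (adjusted p = 2.76e-14).

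Of 18 genes for matrix proteins that metalloproteinases cut, 14 were downregulated and 4 upregulated in each species. The medians were -1.06 in rat and -2.64 in mouse. Of all genes, 16.8% were called lower and 18.3% higher in rat, and 37.7% lower and 37.4% higher in mouse. One of the 4 mouse rises, Fn1 (0.12), was called under TMM scaling, while its FPKM was 2639.8 ± 1.53 in MC and 2359.3 ± 55.7 in MM libraries, with every MM value below every MC value. Col9a1, a chain of the type IX collagen that coats type II fibrils, fell by 1.31 and fell by 4.21 on the log2 scale (difference -2.9, adjusted p = 6.21e-15). Fmod, the collagen-binding proteoglycan fibromodulin, fell by 0.47 and fell by 3.17 (difference -2.7, adjusted p = 4.06e-14). Prg4, the lubricin of the cartilage surface, and Dcn, the proteoglycan decorin, were among the 4 that rose. Prg4 rose more in rat, by 5.79 against 3.36 (difference -2.43, adjusted p = 7.65e-14), and Dcn more in mouse, by 4.99 against 2.27 (difference 2.72, adjusted p = 8.74e-13).

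Among 6 receptors that bind metalloproteinases or collagen, 2 were called higher and 3 lower in rat (median -0.12), and 5 higher and 1 lower in mouse (median 0.78), where all genes gave 18.3% and 16.8% in rat and 37.4% and 37.7% in mouse. Cd44, a hyaluronan receptor that can hold Mmp9 at the cell surface, rose by 1.09 and 2.42 (difference 1.33, adjusted p = 4.07e-10). Lrp1, which takes up secreted metalloproteinases, changed by 0.02 in rat (adjusted p = 0.846, not called) and rose by 1.09 in mouse (difference 1.07, adjusted p = 3.8e-08). Sdc4, a heparan sulphate proteoglycan, rose by 0.92 and 1.64 (difference 0.72, adjusted p = 5.59e-08). Ddr2, a collagen receptor, was called lower in rat (-0.51) and higher in mouse (0.28), a difference of 0.79 (adjusted p = 6.43e-08), but its mouse FPKM of 76.7 ± 2.51 in MC and 76.9 ± 0.816 in MM libraries overlapped, so its call in mouse was made under TMM scaling and no rise was seen in FPKM.

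Of the remaining Mmp genes, 6 were tested in rat, with none called higher and 3 called lower (median -0.32), against 18.3% and 16.8% of all genes. In mouse 7 were tested, with 2 higher and 3 lower (median -0.06), against 37.4% and 37.7% of all genes. Both that rose in mouse, Mmp1b and Mmp27, lie in the cluster on chromosome 9 and were named after their values were seen. Mmp1b had no counts in the MC libraries and 111, 124 and 109 in the MM libraries, at least 126.5-fold higher against a limit of 3 counts over the MC group, and in rat it had 0, 1 and 0 counts in RC libraries and 9, 1 and 2 in RM libraries, too few to test. Mmp27 had 2, 1 and 3 counts in the MC libraries and 18, 16 and 24 in the MM libraries. Its ratio of scaled counts was 10.7, with a counting interval of 4.61 to 30.3. Mmp1b and Mmp27 both passed the filter on low counts through the MM libraries. The exons of mouse Mmp1b overlap those of Mmp12 on the opposite strand by 157 bases. The part of Mmp12 reads in the Mmp1b counts was not tested. Of the genes tested in both species, Mmp23 fell by 0.48 in rat and fell by 2.1 in mouse on the log2 scale (difference -1.62, adjusted p = 2.65e-09) and Mmp15, a membrane-type enzyme, fell by 2.09 and fell by 1.37 (difference 0.73, adjusted p = 0.0271). Mmp28 was called lower in rat (-0.85) and not in mouse (-0.06, adjusted p = 0.515, difference 0.78, adjusted p = 0.000238), where its FPKM, without TMM, was 5.32 ± 0.285 in MC and 4.2 ± 0.0492 in MM libraries without overlap. Mmp16 was called lower in mouse (-0.28) and not in rat (0.09, adjusted p = 0.435, difference -0.38, adjusted p = 0.00728).

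**Figure D5:**
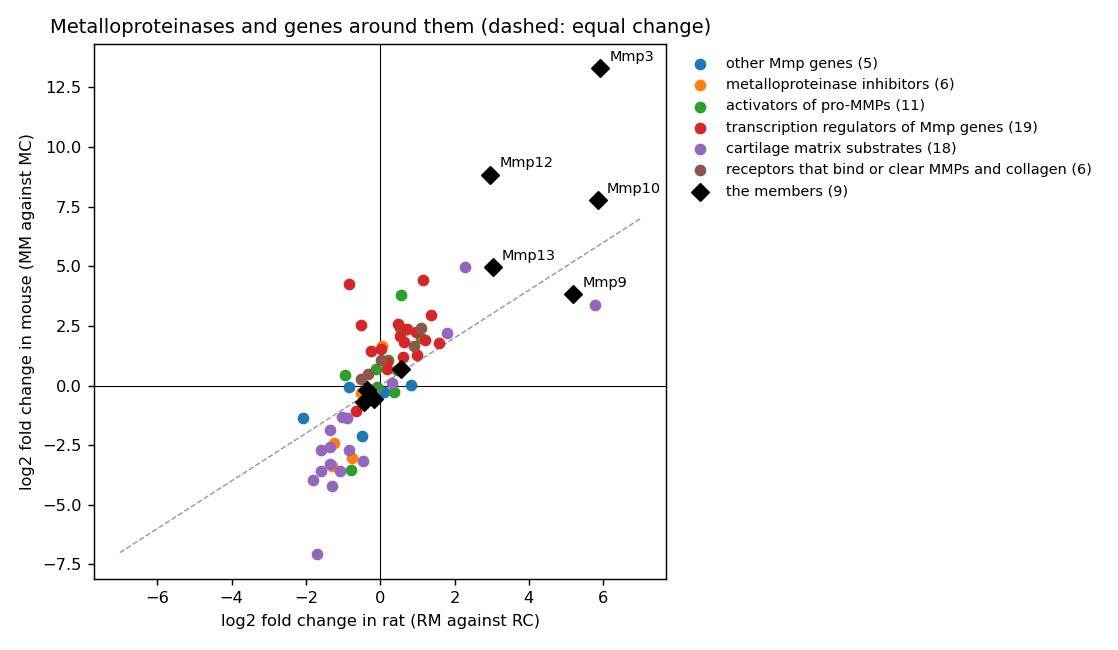
Log2 fold change in mouse against that in rat for the 9 members tested (black diamonds, 5 of them named) and for genes of the 6 lists tested in both species (coloured points, with the number of genes in the legend). The dashed line marks equal change, and Mmp3, Mmp12, Mmp10 and Mmp13 lie above it and Mmp9 below it.

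Markers of other cells that make these enzymes were read beside the members. Of 8 macrophage markers, the 3 that averaged 1 FPKM or more in each group were Cd14, Cd68 and Lyz2, and the list summed to 19.7 to 23.3 FPKM in RC, 31.8 to 35.0 in RM, 7.38 to 7.67 in MC and 34.4 to 37.1 in MM libraries, with Itgam at 0 in both mouse groups and Adgre1 at 0 in the MM group. Of 7 neutrophil markers, 3 were in the rat table and 5 in the mouse table, and the list summed to at most 0.175 FPKM in rat libraries, 0.103 to 0.802 in MC and 43.6 to 47.1 in MM libraries, where S100a8 was the only marker with a mean FPKM of at least 1 and Mpo was at 0. The osteoclast list, with Acp5 in the lead, summed to 6.71 to 7.85 FPKM in RC, 3.84 to 5.25 in RM, 2.98 to 3.77 in MC and 1.8 to 2.51 in MM libraries. The fibroblast list, with Col3a1 and Pdgfra among its 3 leading genes in each group, summed to 1630 to 1790 FPKM in RC, 1150 to 1200 in RM, 389 to 398 in MC and 361 to 365 in MM libraries. Endothelial markers summed to at most 0.504 FPKM and muscle markers to at most 4.35 in any library. The part of such cells in the members' changes was not tested.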

How the data were processed

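The authors deposited 1 table for rat and 1 for mouse, each holding raw counts (whole numbers, not normalized) and FPKM values by gene and library. The deposited FPKM equalled the count divided by a fixed gene length and the column total within 0.1% for 100% of the 75683 rat and 81491 mouse values of genes with at least 100 counts. Per the labels, the submitters' processing notes name HISAT2, HTSeq 0.11.2, GRCm38 and Rnor_6.0, without their role. Whether reads were counted by strand is not given in the sources used here.

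Counts were fitted in R 4.3.3 with edgeR 4.0.16 (filterByExpr, TMM, glmQLFit and glmQLFTest), each species on its own, and p was adjusted by Benjamini-Hochberg over all genes tested. The species difference, mouse minus rat, was tested in 1 fit of all 12 libraries over the genes shared by symbol (10912 tested in both), scaled within each species. In this fit the 4 groups shared 1 estimate of the spread per gene, although the spread was 0.106 in rat and 0.0318 in mouse. The SE and calls of the difference depend on this sharing. Orthology was assumed from the shared symbol. Standard errors (SE) were computed as the absolute log2 fold change divided by the square root of the quasi-likelihood F value. They understate the uncertainty of genes with few counts in a group. A gene with few counts is given as a ratio of scaled counts with an exact 95% interval, and a fold against a group at 0 counts as the limit that 3 counts allow. Intervals and limits cover counting error only. Mouse positions come from GENCODE M21 (GRCm38), whose merged exon lengths equalled those implied by the FPKM of all 10 members.

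The smallest p of an exact permutation test of 3 against 3 libraries is 0.1, so each call depends on edgeR's sharing of the spread between genes. Alternatives were library totals, relative log expression factors, no filter, DESeq2 1.42.0, limma 3.58.1 on log2(FPKM + 1) and log2(FPKM + 0.1), a replicate block, leaving out each library, and the study's criteria. The edgeR, DESeq2 and limma tests were also run on simulated data, and no outcome of that is given or relied on here. Each pair of libraries of a group differed by more than sampling noise, which alone would give a chi-squared per gene near 1. It was 1.9 to 2.48 in mouse pairs and 6.07 to 27.8 in rat pairs, highest between RC replicates 1 and 2. The small p values in mouse rest on this small spread between libraries. The members and gene lists were chosen with earlier results of these data known, so the counts of their calls are a description and test no excess. All members are named, and of each other list up to 4 genes with the smallest p of the species difference.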

Additional observations from a re-analysis of the deposited data

Results flagged for a closer look

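The change of 5 members differed between mouse and rat in the test of the difference by edgeR. On the log2 scale, mouse minus rat, the differences were 7.38 for Mmp3 (adjusted p = 1.94e-16), 5.9 for Mmp12 (adjusted p = 8.93e-09), 1.93 for Mmp13 (adjusted p = 5.18e-11), 1.93 for Mmp10 (adjusted p = 0.0112) and -0.41 for Mmp14 (adjusted p = 5.51e-05). The differences of Mmp12 and Mmp10 rest on 3 and 6 counts in the MC group, whereas those of Mmp3, Mmp13 and Mmp14 rest on 89, 3926 and 50036. The Mmp13 difference lay between 1.84 and 2.02 when each of the 12 libraries was left out in turn, and that of Mmp10 between 1.39 and 3.68. With library totals alone the differences of Mmp3 and Mmp13 were 7.09 and 1.63, and on the log2(FPKM + 1) scale 6.17 and 1.62.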

How the results depend on the processing

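The count of members called higher was 6 in each species under both other scalings, without the filter, with DESeq2, with limma, with the replicate block and with each library left out, and 5 in rat and 4 in mouse by the study's criteria. The count with a larger change in mouse (4) was 3 with limma at either pseudocount and 3 to 5 when libraries were left out. The count called lower in rat (1) was 2 with relative log expression factors, with limma at either pseudocount and with the replicate block, when Mmp11 was called as well, and 0 by the study's criteria. It was 1 to 3 when libraries were left out, with 3 without RC replicate 1. The count called lower in mouse (3) was 0 by the study's criteria, 2 without the filter and with DESeq2, when Mmp19 was not called, and 2 to 3 when libraries were left out. The count with a lower value in mouse than in rat (1) was 2 with library totals, 2 with DESeq2, 4 with log2(FPKM + 1), 3 with log2(FPKM + 0.1) and 1 to 2 when libraries were left out, with 2 without RM replicate 3 or MC replicate 3. The species difference of Mmp2 turned to -0.16 with library totals and with either pseudocount, that of Mmp19 to -0.15, -0.08 and -0.14, and that of Mmp10 to -0.96 with log2(FPKM + 1). The cause of these turns was not tested. Mmp9 was called for the difference by DESeq2 (-1.3, adjusted p = 0.0359), with both pseudocounts (-2.13 and -2.31) and without MC replicate 3 (-1.79), and Mmp11 with library totals (-0.55), with both pseudocounts (-0.52 and -0.53) and without RM replicate 3 (-0.38). No source used here says that the replicate numbers pair the libraries. Same-numbered libraries deviated together with correlations of -0.098 to 0.085 in rat and 0.001 to 0.015 in mouse. Differently numbered ones had -0.185 to 0.162 in rat and -0.01 to 0.006 in mouse. With 3 libraries per group, these values cannot exclude a shared animal or day. The replicate block changed no other member's call. Depth limits Mmp8 in both species and Mmp9, Mmp10 and Mmp12 in the MC group.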

Other observations

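Over the 10903 genes with a fitted change in both species, apart from the members, the nearest to Mmp3 by the distance between pairs of log2 fold changes (rat, mouse) were Cxcl2 (6.89 and 13.11, distance 0.99), Il6 (3.95 and 12.51, distance 2.13) and Cxcl1 (6.02 and 11.0, distance 2.31). Cxcl1 and Cxcl2 encode chemokines that attract neutrophils and Il6 an inflammatory cytokine. Cxcl2 had 2 counts in the RC group and 1 in the MC group, and Il6 had 22 and 6, so their fitted values are loose, whereas Cxcl1 had 548 and 92. The nearest to Mmp13 were Gdnf (2.53 and 4.91, distance 0.5), a neurotrophic factor, Steap4 (2.88 and 4.47, distance 0.51), a metalloreductase, and Rnd1 (2.69 and 4.51, distance 0.56). The distances are a description of 2 values per gene over 12 libraries and carry no test.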
